A study of Mus musculus with 12 samples.

Results

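Type I interferon-stimulated genes were examined as a set of 41 genes listed by symbol in bulk RNA sequencing of mouse ear skin. All 41 were found among the 24532 genes of the deposited table, and 40 were abundant enough to be tested among the 16466 genes that entered the fit. The exception was Cxcl11, which had 23 counts over the 3 SPF ethanol libraries, 0 over SPF MC903, 21 over GF ethanol and 10 over GF MC903. The skin came from mice kept specific-pathogen free (SPF), which carry microbes but not listed pathogens, or germ free (GF), which carry none. Each was treated with ethanol, the vehicle, or with MC903, which is calcipotriol, a vitamin D analogue that inflames skin. This gave 4 groups of 3 libraries: SPF ethanol 1 to 3, SPF MC903 1 to 3, GF ethanol 1, 4 and 5, and GF MC903 1, 4 and 5. The labels name no genetic change in any group and give no age. The strain reads C57BL/6 for 9 libraries, while 3 GF libraries carry strain names with other final numbers: 7 for GF MC903 4, 8 for GF ethanol 5 and 9 for GF MC903 5. Applications numbered 5 in every group, but the interval between them cannot be read from the labels. Whether libraries come from separate mice is also not given, so a p-value here reflects variation among libraries, part of which may be technical.

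Type I interferons are secreted proteins that cells make after sensing viral or microbial nucleic acid. They bind a receptor of IFNAR1 and IFNAR2 chains, whose kinases JAK1 and TYK2 phosphorylate STAT2. STAT2 and IRF9 are parts of the complex ISGF3, which binds the interferon-stimulated response element (ISRE) in promoters of the genes studied here. The gene products include sensors, enzymes and membrane proteins that limit viral replication. In skin, commensal bacteria and wounding are known to act on this pathway, and keratinocytes, fibroblasts and immune cells can all respond to it. C57BL/6 mice carry defective alleles of Mx1, Mx2 and Cxcl11, so transcript levels of those genes do not report a working protein.

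Library totals lay between 36358294 and 48225425 counts. Scaling factors from the trimmed mean of M values (TMM), which adjust for composition, were 1.16 to 1.25 in ethanol and 0.81 to 0.84 in MC903 libraries. Levels are given as CPM, the counts of a gene per 1000000 scaled counts of its library. Differences are log2 values from edgeR's quasi-likelihood test with their standard error (SE), and adjusted p is the Benjamini-Hochberg value over all 16466 genes. A gene is called higher or lower when that value is under 0.05. Values with ± beside a comparison are log2 differences with SE, and each group has n = 3. Replicate libraries differed by more than sampling noise in all 12 pairs within groups (chi-square per degree of freedom 17.2 to 44.9), so none was counted as a duplicate.

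Interferon-stimulated genes stood higher in GF than in SPF skin. With MC903, 32 of 40 tested members were higher in GF skin, where 20.8% of all tested genes were, and 1 was lower, where 20.9% of all genes were. The members' median log2 difference was 0.82, against 0.02 over all genes, and 38 of the 40 estimates were positive. With ethanol, 19 members were higher in GF skin, where 11.6% of all genes were, and 1 was lower, where 10.3% were. Their median there was 0.52, against 0.0 over all genes. All 19 were also among the 32 called with MC903, and the other 13 passed only with MC903, which is not a test of a difference between treatments. GF libraries lay above every SPF library of the same treatment for 26 members with ethanol (21.8% of all tested genes) and for 32 with MC903 (25.4%).

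The response to MC903 was mixed. In SPF skin 12 members rose and 16 fell, where 35.0% of all genes rose and 38.8% fell, and the median change was -0.04 against -0.1 over all genes. In GF skin 18 rose and 8 fell, where 33.4% rose and 35.1% fell, and the median was 0.39 against -0.07. These splits depend on scaling: on library totals, which move the median of all genes to -0.68 in SPF and -0.58 in GF, 8 members rose and 18 fell in SPF skin, and 13 rose and 13 fell in GF skin. The members' medians on that scale were -0.62 in SPF and -0.13 in GF skin, which is 0.06 and 0.45 above the median gene. The difference between the responses, GF minus SPF, passed for 4 members upward and 1 downward, where 7.76% and 9.26% of all genes did. Its median was 0.35, with 34 of 40 estimates positive, against 0.02 over all genes.

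Members were also summarised in each library. After centring each gene on its mean log2 CPM, the median member stood at -0.4 to -0.21 in SPF ethanol and -0.59 to -0.32 in SPF MC903. It stood at 0.18 to 0.22 in GF ethanol and 0.39 to 0.77 in GF MC903. By this median no GF library overlapped an SPF library, and the SPF ethanol and SPF MC903 libraries overlapped. The order of the groups was another by the members' summed level, where SPF MC903 lay above GF ethanol. That sum, which Ly6e, Ifitm3 and Samhd1 dominate, was 577.7 to 595 CPM in SPF ethanol, 948.9 to 1048.4 in SPF MC903, 726.2 to 743.6 in GF ethanol and 1319 to 1448.5 in GF MC903. GF lay above SPF within each treatment on both summaries. Over the 40 members the GF minus SPF differences under the 2 treatments, which share no library, had Pearson's r 0.71 and Spearman's rho 0.75, against a rho of 0.42 over all genes. This is a correlation across genes, which are not independent replicates. The labels also do not say whether libraries of the 2 treatments come from shared mice.

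**Figure D1:**
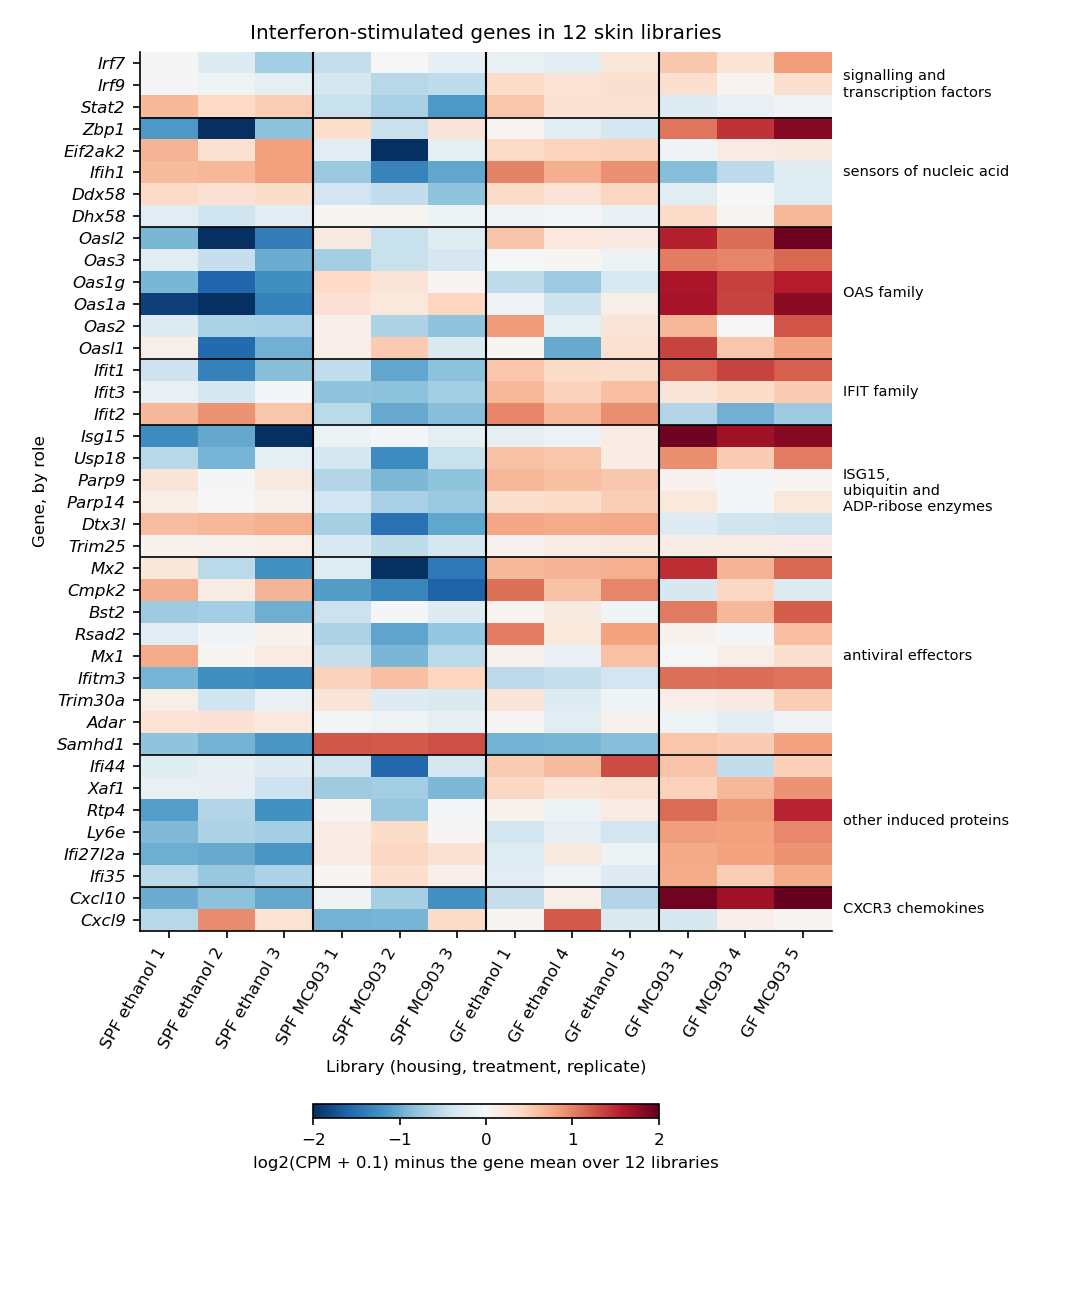
Rows are the 40 tested interferon-stimulated genes grouped by role and columns the 12 libraries. Colour is log2(CPM + 0.1) minus the gene's mean over all libraries, cut at 2 in either direction. GF MC903 columns are red for most genes, while Samhd1 is reddest in SPF MC903.

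Promoter sequences of the members were read from RefSeq for the build GRCm38.p6, which is the mm10 assembly of the deposited table. Windows from 250 bases before to 50 after the start were found for 29 of the 41 members. An ISRE, searched as GAAANNGAAA on both strands, occurred in 15 of the 29 genes (51.7%), against 1079 of 27025 genes with a window (3.99%). The palindromic GAS element TTCNNNGAA, bound by STAT dimers, occurred in 8 of the 29 (27.6%) against 9.55% of all. A GAS match can overlap an ISRE match. The 140 bases that end just before the start are shown for 6 genes with an ISRE there and for Samhd1, the member lower in GF skin with MC903, which has none. They were chosen after their values were seen. Capitals mark ISRE matches on either strand.
Isg15, chr4:156200819-156200958, minus strand: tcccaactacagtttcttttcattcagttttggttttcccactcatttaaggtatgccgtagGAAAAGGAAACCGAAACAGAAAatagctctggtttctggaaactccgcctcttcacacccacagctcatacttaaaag
Ifit1, chr19:34640749-34640888, plus strand: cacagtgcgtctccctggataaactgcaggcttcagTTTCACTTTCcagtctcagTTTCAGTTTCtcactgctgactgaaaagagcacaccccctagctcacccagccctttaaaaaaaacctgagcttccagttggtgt
Bst2, chr8:71537473-71537612, minus strand: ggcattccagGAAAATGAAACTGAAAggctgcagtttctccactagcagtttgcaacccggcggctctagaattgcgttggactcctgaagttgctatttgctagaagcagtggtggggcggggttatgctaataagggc
Rsad2, chr12:26456453-26456592, minus strand: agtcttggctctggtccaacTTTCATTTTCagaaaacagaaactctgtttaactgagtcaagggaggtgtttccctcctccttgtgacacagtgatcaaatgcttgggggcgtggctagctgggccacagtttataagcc
Oas1a, chr5:120907526-120907665, minus strand: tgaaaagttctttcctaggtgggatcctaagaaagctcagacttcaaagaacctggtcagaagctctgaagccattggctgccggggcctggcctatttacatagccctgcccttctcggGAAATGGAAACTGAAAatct
Oas1g, chr5:120887614-120887753, minus strand: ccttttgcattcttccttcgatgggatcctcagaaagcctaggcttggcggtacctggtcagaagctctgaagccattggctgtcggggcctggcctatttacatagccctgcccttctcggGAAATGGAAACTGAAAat
Samhd1, chr2:157135097-157135236, minus strand: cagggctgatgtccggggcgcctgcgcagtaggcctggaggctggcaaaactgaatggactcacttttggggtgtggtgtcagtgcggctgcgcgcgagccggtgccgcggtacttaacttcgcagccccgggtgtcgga

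Of the 15 members with an ISRE match, 13 were higher in GF skin with MC903 and 8 with ethanol, with median log2 differences of 1.19 and 0.76. Of the 14 members with a window but no match, 8 and 4 were higher, with medians of 0.7 and 0.32. Of all tested genes, 20.8% were higher with MC903 and 11.6% with ethanol. A match is a description of letters in these windows, and the difference between the subsets was not tested. Oas1a and Oas1g, near-identical neighbours, each hold 2 matches in the stretch shown, and Isg15 holds 3. Within each of these genes the matches overlap in a continuous run, so they do not count separate elements.

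Among the signalling genes, all 3 were higher in GF skin with MC903 and 1 with ethanol, where 20.8% and 11.6% of all genes were. Irf9 encodes the DNA-binding subunit of ISGF3 and read 20.4, 19.6 and 18.1 CPM in SPF ethanol, 16.4, 14 and 14.6 in SPF MC903, 27, 25.1 and 25.8 in GF ethanol and 25.9, 21.6 and 26 in GF MC903. All GF libraries of a treatment lay above all SPF libraries, with log2 differences of 0.42 ± 0.09 (adjusted p = 0.0087) with ethanol and 0.71 ± 0.09 (adjusted p = 8.7e-05) with MC903, a 1.64-fold excess. Irf7, a transcription factor that amplifies interferon production, stood at 7.75, 6.39 and 4.74 CPM in the SPF ethanol libraries and 5.49, 7.61 and 6.81 with MC903, against 7.0, 6.55 and 9.11 in GF ethanol and 11.2, 9.25 and 13.8 in GF MC903. Its GF and SPF values overlapped with ethanol (0.26 ± 0.2, adjusted p = 0.38) and did not with MC903 (0.78 ± 0.21, adjusted p = 0.0094). Stat2, the ISGF3 subunit found mainly in this pathway, had 27.4, 23 and 24.5 CPM (SPF ethanol), 12.8, 11 and 7.76 CPM (SPF MC903), 25.6, 21.5 and 21.6 CPM (GF ethanol) and 14.5, 15.6 and 16.6 CPM (GF MC903). MC903 values were below ethanol values in both housings, and the fall was larger in SPF skin, -1.24 ± 0.15 (adjusted p = 9.4e-06), than in GF skin, -0.56 ± 0.15 (adjusted p = 0.0054). The difference between those responses was 0.69 ± 0.21 (adjusted p = 0.044), and with MC903 GF exceeded SPF by 0.56 ± 0.15 (adjusted p = 0.011). That difference between responses was lost on omitting SPF MC903 2 or 3, SPF ethanol 1, 2 or 3, GF MC903 1, 4 or 5, or GF ethanol 4 or 5 (log2 0.51 to 0.74, adjusted p = 0.053 to 0.1), without the filter on low counts (adjusted p = 0.059) and on removal of the length trend (adjusted p = 0.059).

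Sensors of nucleic acid were higher in GF skin with MC903 for 4 of 5 genes and with ethanol for 1 of 5. The shares over all genes were 20.8% and 11.6%, and 1 gene of 5 does not set the sensors apart from the latter. Zbp1, a sensor of Z-form nucleic acid that can start cell death, measured 0.418, 0.186 and 0.553 CPM in SPF ethanol, 1.37, 0.746 and 1.28 in SPF MC903, 1.08, 0.887 and 0.798 in GF ethanol and 2.3, 3.03 and 3.95 in GF MC903. It rose with MC903 in SPF, 1.53 ± 0.38 (adjusted p = 0.0028), and in GF skin, 1.74 ± 0.34 (adjusted p = 0.00057), and GF libraries lay above SPF libraries under both treatments. The housing difference was 1.24 ± 0.38 (adjusted p = 0.035) with ethanol and 1.45 ± 0.34 (adjusted p = 0.0046) with MC903. Ifih1 encodes MDA5, a sensor of long double-stranded RNA, and counted 9.68, 9.94 and 11.1 CPM in the SPF ethanol libraries and 3.67, 2.39 and 2.96 with MC903, against 12.4, 10.3 and 11.8 in GF ethanol and 3.41, 4.31 and 5.24 in GF MC903. It fell with MC903 in both housings, log2 -1.76 ± 0.18 (adjusted p = 1.4e-06) in SPF and -1.41 ± 0.17 (adjusted p = 1.2e-05) in GF, and the MC903 libraries of the 2 housings overlapped although the GF excess passed, 0.52 ± 0.18 (adjusted p = 0.036).

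Ddx58, which encodes the RNA sensor RIG-I, read 18.3, 17.3 and 18 CPM (SPF ethanol), 10.7, 9.9 and 7.96 CPM (SPF MC903), 18, 16.9 and 18.8 CPM (GF ethanol) and 12, 14.1 and 11.8 CPM (GF MC903). The housings overlapped with ethanol (log2 0.0, adjusted p = 0.99). With MC903 they did not, and GF was higher by 0.41 ± 0.11 (adjusted p = 0.011). Dhx58, or LGP2, a regulator of the other RIG-I-like sensors, had 3.59, 3.17 and 3.63 CPM in SPF ethanol, 4.27, 4.37 and 3.91 in SPF MC903, 3.99, 4.08 and 3.82 in GF ethanol and 5.53, 4.39 and 6.7 in GF MC903. GF values lay just above SPF values with MC903, 0.4 ± 0.15 (adjusted p = 0.048). Eif2ak2 encodes PKR, a kinase that stops translation on double-stranded RNA, and gave 14.2, 10.9 and 15.6 CPM in the SPF ethanol libraries and 7.49, 1.05 and 7.66 with MC903, against 11.5, 12 and 12.1 in GF ethanol and 8.34, 9.84 and 10 in GF MC903. Library SPF MC903 2 stood far below its replicates, and no housing difference passed (with MC903 0.81 ± 0.45, adjusted p = 0.18).

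Several sensor calls were lost when 1 library was left out. Zbp1 with ethanol was lost on omitting SPF ethanol 1 or 2, or GF ethanol 1 or 4 (log2 0.92 to 1.3, adjusted p = 0.073 to 0.1) and with the length trend removed (adjusted p = 0.1). With MC903, Ifih1 was lost on omitting SPF MC903 2 or 3, or GF MC903 4 or 5 (log2 0.36 to 0.52, adjusted p = 0.069 to 0.15), Ddx58 on omitting GF MC903 4 (log2 0.32, adjusted p = 0.05), and Dhx58 on omitting SPF MC903 1, 2 or 3, SPF ethanol 1, 2 or 3, GF MC903 1 or 5, or GF ethanol 1, 4 or 5 (log2 0.24 to 0.44, adjusted p = 0.054 to 0.22) and in 4 other settings (adjusted p = 0.055 to 0.073).

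The OAS family makes a second messenger that activates RNase L, which degrades RNA. With MC903 5 of 6 were higher in GF skin and with ethanol 3 of 6, and none was lower. The shares over all genes were 20.8% higher and 20.9% lower with MC903, and 11.6% and 10.3% with ethanol. Oas1a had 0.475, 0.371 and 0.719 CPM in SPF ethanol, 2.45, 2.34 and 2.73 in SPF MC903, 1.9, 1.48 and 2.18 in GF ethanol and 6.47, 5.25 and 7.25 in GF MC903. Within a treatment the housings did not overlap, and GF exceeded SPF 3.52-fold with ethanol, log2 1.82 ± 0.25 (adjusted p = 0.0011), and 2.53-fold with MC903, log2 1.34 ± 0.22 (adjusted p = 0.00042). Its neighbour Oas1g measured 0.323, 0.165 and 0.24 CPM in the SPF ethanol libraries and 0.949, 0.848 and 0.724 with MC903, against 0.461, 0.38 and 0.546 in GF ethanol and 2.38, 1.95 and 2.26 in GF MC903. The 4 groups were again separate, with log2 0.92 ± 0.3 (adjusted p = 0.048) for ethanol and 1.38 ± 0.26 (adjusted p = 0.001) for MC903. Reads of these near-identical genes could be split either way by the counting, so their separate values are uncertain. Oasl2, an OAS-like protein, read 1.08, 0.227 and 0.756 CPM (SPF ethanol), 2.42, 1.54 and 1.78 CPM (SPF MC903), 3.19, 2.49 and 2.43 CPM (GF ethanol) and 6.41, 4.72 and 8.45 CPM (GF MC903). Every GF library exceeded every SPF library of the same treatment, by 1.96 ± 0.39 (adjusted p = 0.0061) and 1.77 ± 0.37 (adjusted p = 0.0022).

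Oas3, which makes the messenger on long double-stranded RNA, stood at 0.836, 0.68 and 0.443 CPM in SPF ethanol, 0.574, 0.694 and 0.757 in SPF MC903, 0.982, 1.01 and 0.903 in GF ethanol and 2.1, 2.03 and 2.29 in GF MC903. SPF values overlapped between treatments, whereas all GF MC903 values were above 2 CPM and all GF ethanol values near 1 CPM. The GF response was 1.14 ± 0.24 (adjusted p = 0.00097), the SPF response 0.04 ± 0.26 (adjusted p = 0.89), and their difference 1.1 ± 0.36 (adjusted p = 0.052). GF exceeded SPF with MC903 by 1.67 ± 0.25 (adjusted p = 0.00025). Oas2 had 1.88, 1.42 and 1.4 CPM in the SPF ethanol libraries and 2.42, 1.44 and 1.25 with MC903, against 4.13, 1.99 and 2.73 in GF ethanol and 3.63, 2.25 and 5.56 in GF MC903. Its MC903 groups overlapped, since GF MC903 4 lay below SPF MC903 1, and the difference of 1.15 ± 0.37 (adjusted p = 0.024) was lost on omitting SPF MC903 2 or 3, or GF MC903 5 (log2 0.78 to 1.03, adjusted p = 0.074 to 0.12). Oasl1, a translational repressor of Irf7, read 0.817, 0.186 and 0.332 CPM (SPF ethanol), 0.824, 1.11 and 0.592 CPM (SPF MC903), 0.762, 0.317 and 0.945 CPM (GF ethanol) and 2.04, 1.14 and 1.37 CPM (GF MC903) and passed in neither housing comparison (with MC903 0.84 ± 0.49, adjusted p = 0.2). Among the ethanol calls, Oas1g was lost on omitting SPF MC903 1, 2 or 3, SPF ethanol 2 or 3, GF MC903 1, 4 or 5, or GF ethanol 1, 4 or 5 (log2 0.71 to 1.03, adjusted p = 0.053 to 0.15) and in 4 other settings (adjusted p = 0.057 to 0.082).

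IFIT proteins bind viral RNA and hinder its translation. The 3 genes lie together on chromosome 19, from 34550550 (Ifit2) to 34650009 (Ifit1), and 2 of them were higher in GF skin under both treatments. Of all tested genes, 20.8% were higher with MC903 and 11.6% with ethanol. Ifit1 had 1.08, 0.515 and 0.774 CPM in SPF ethanol, 1.02, 0.668 and 0.789 in SPF MC903, 2.21, 1.92 and 1.89 in GF ethanol and 3.43, 3.89 and 3.49 in GF MC903. SPF values overlapped between treatments, GF ethanol values were above them all, and GF MC903 values were higher still. The GF excess was 2.52-fold with ethanol, log2 1.34 ± 0.25 (adjusted p = 0.0047), and 4.34-fold with MC903, log2 2.12 ± 0.26 (adjusted p = 5.2e-05). Ifit3 read 6.57, 5.69 and 7.12 CPM in the SPF ethanol libraries and 4.12, 4.11 and 4.51 with MC903, against 11.6, 10.1 and 11.2 in GF ethanol and 8.74, 9.48 and 10.4 in GF MC903. The GF groups lay above the SPF groups, by 0.76 ± 0.11 (adjusted p = 0.0015) with ethanol and 1.17 ± 0.12 (adjusted p = 1.3e-05) with MC903, and its near-identical copy Ifit3b makes the split of reads uncertain. Ifit2 had 6.23, 7.4 and 5.84 CPM (SPF ethanol), 2.67, 1.9 and 2.14 CPM (SPF MC903), 7.78, 6.25 and 7.58 CPM (GF ethanol) and 2.58, 1.97 and 2.32 CPM (GF MC903). It fell with MC903 in SPF, -1.53 ± 0.17 (adjusted p = 3.3e-06), and GF skin, -1.65 ± 0.17 (adjusted p = 2.5e-06), and the housings overlapped with both treatments (with MC903 0.03 ± 0.18, adjusted p = 0.9).

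All 6 genes of the ISG15, ubiquitin and ADP-ribose group were higher in GF skin with MC903, and 4 with ethanol. The shares of all tested genes were 20.8% and 11.6%. Isg15 encodes a ubiquitin-like modifier and had 0.608, 0.722 and 0.147 CPM in SPF ethanol, 1.45, 1.52 and 1.38 in SPF MC903, 1.38, 1.44 and 1.78 in GF ethanol and 6.36, 5.28 and 5.81 in GF MC903. SPF ethanol 3 was the lowest, at 0.147 CPM, and GF MC903 libraries lay above all others. GF ethanol and SPF MC903 overlapped, while within a treatment the housings did not. GF exceeded SPF by 1.65 ± 0.36 (adjusted p = 0.0091) with ethanol and by 2.0 ± 0.33 (adjusted p = 0.00044), a 4.0-fold excess, with MC903. Usp18 encodes the protease that removes ISG15 and restrains the receptor, and read 0.949, 0.701 and 1.24 CPM in the SPF ethanol libraries and 1.1, 0.54 and 1.02 with MC903, against 2.21, 2.15 and 1.6 in GF ethanol and 2.81, 2.08 and 3.01 in GF MC903. GF libraries lay above SPF libraries with ethanol (1.04 ± 0.29, adjusted p = 0.023) and MC903 (1.57 ± 0.3, adjusted p = 0.0012). The ethanol call was lost on omitting SPF ethanol 1 or 2, or GF ethanol 1 or 4 (log2 0.86 to 1.03, adjusted p = 0.064 to 0.091) and with the length trend removed (adjusted p = 0.054).

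Trim25, the ubiquitin ligase that activates RIG-I, was precise, with 58.8, 59 and 60.8 CPM (SPF ethanol), 45, 39.4 and 43.8 CPM (SPF MC903), 59.6, 62.3 and 63.2 CPM (GF ethanol) and 61.9, 62.5 and 61.9 CPM (GF MC903). The 3 SPF MC903 libraries lay below the other 9, which spanned 58.8 to 63.2 CPM. The SPF response was -0.48 ± 0.06 (adjusted p = 1.7e-05), the GF response 0.01 ± 0.06 (adjusted p = 0.91), and their difference 0.49 ± 0.09 (adjusted p = 0.0031) held under each alternative and with each library left out. The responses themselves depend on the setting: on library totals the GF change was -0.5 (adjusted p = 2.1e-05), and with the length trend removed the SPF change was 0.02 (adjusted p = 0.79). With MC903 GF exceeded SPF by 0.54 ± 0.06 (adjusted p = 3.9e-05).

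Parp9, Dtx3l and Parp14 adjoin on chromosome 16 and encode ADP-ribosyltransferases and a ubiquitin ligase partner of PARP9. Parp9 read 10.8, 8.84 and 10.2 CPM in SPF ethanol, 5.99, 4.81 and 5.13 in SPF MC903, 14.4, 13.7 and 13.2 in GF ethanol and 9.48, 8.73 and 9.22 in GF MC903. Parp14 stood at 12.1, 11.3 and 11.9 CPM in the SPF ethanol libraries and 8.54, 7.15 and 6.64 with MC903, against 14, 14.5 and 15.8 in GF ethanol and 13, 10.9 and 13 in GF MC903. In both genes the GF libraries were above the SPF libraries within each treatment, and MC903 libraries were below ethanol libraries within each housing. Their GF excess with MC903 was 0.78 ± 0.11 (adjusted p = 0.00015) and 0.72 ± 0.11 (adjusted p = 0.00028), and with ethanol 0.47 ± 0.1 (adjusted p = 0.0097) and 0.33 ± 0.11 (adjusted p = 0.046). Dtx3l had 6.7, 6.99 and 7.17 CPM (SPF ethanol), 2.72, 1.49 and 2.07 CPM (SPF MC903), 7.5, 7.35 and 7.43 CPM (GF ethanol) and 3.63, 3.28 and 3.24 CPM (GF MC903). Its fall with MC903 was -1.73 ± 0.17 (adjusted p = 1.4e-06) in SPF and -1.13 ± 0.16 (adjusted p = 5.5e-05) in GF skin, and GF exceeded SPF with MC903 by 0.69 ± 0.18 (adjusted p = 0.0077). Parp9 and Dtx3l overlap in the annotation, and the library kit does not mark strand, so their reads cannot be fully told apart. Parp14 with ethanol was lost on omitting SPF ethanol 1, 2 or 3, GF MC903 1 or 5, or GF ethanol 1, 4 or 5 (log2 0.28 to 0.37, adjusted p = 0.056 to 0.13), on library totals (adjusted p = 0.097) and with no filter (adjusted p = 0.052).

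Of 9 antiviral effectors, 6 were higher and 1 lower in GF skin with MC903, and 3 were higher and 1 lower with ethanol. Over all tested genes 20.8% were higher and 20.9% lower with MC903, and 11.6% and 10.3% with ethanol. Bst2 encodes tetherin, which holds budding virus at the cell surface, and had 7.1, 7.32 and 5.88 CPM in SPF ethanol, 8.64, 11.4 and 9.8 in SPF MC903, 12.2, 13.3 and 11.3 in GF ethanol and 24.3, 18.7 and 27.2 in GF MC903. Within each treatment the housings did not overlap, and GF exceeded SPF by 0.86 ± 0.15 (adjusted p = 0.0034) with ethanol and 1.23 ± 0.15 (adjusted p = 5e-05) with MC903. Ifitm3, which blocks fusion of virus in endosomes, read 78.8, 63.9 and 61.1 CPM in the SPF ethanol libraries and 207, 226 and 201 with MC903, against 105, 108 and 114 in GF ethanol and 322, 326 and 318 in GF MC903. It rose with MC903 about 3-fold in each housing (3.11 in SPF, 2.95 in GF), and GF lay above SPF by 0.68 ± 0.09 (adjusted p = 0.00081) and 0.61 ± 0.09 (adjusted p = 0.00016). Removal of the length trend took the MC903 housing difference of this short transcript to 0.19 (adjusted p = 0.073).

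Rsad2 encodes viperin, which makes a chain-terminating nucleotide, and measured 0.722, 0.825 and 0.903 CPM (SPF ethanol), 0.524, 0.36 and 0.461 CPM (SPF MC903), 1.84, 1.01 and 1.57 CPM (GF ethanol) and 0.908, 0.834 and 1.35 CPM (GF MC903). GF values were above SPF values in both treatments, by 0.85 ± 0.28 (adjusted p = 0.047) with ethanol and 1.19 ± 0.32 (adjusted p = 0.0097) with MC903. Cmpk2, its neighbour on chromosome 12 and the kinase that supplies its substrate, had 2.41, 1.59 and 2.32 CPM in SPF ethanol, 0.599, 0.514 and 0.395 in SPF MC903, 3.15, 2.18 and 2.9 in GF ethanol and 1.11, 1.92 and 1.15 in GF MC903. It fell most of all members in SPF skin, -2.05 ± 0.3 (adjusted p = 4.2e-05), changed by -0.98 ± 0.27 (adjusted p = 0.0058) in GF skin, and with MC903 GF exceeded SPF by 1.45 ± 0.31 (adjusted p = 0.0025). The ethanol call for Rsad2 was lost on omitting SPF MC903 1 or 3, SPF ethanol 1, 2 or 3, GF MC903 1, or GF ethanol 1 or 5 (log2 0.66 to 0.93, adjusted p = 0.054 to 0.17), on library totals (adjusted p = 0.064) and with no filter (adjusted p = 0.056).

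The Mx genes encode dynamin-like GTPases. Mx2 had 0.418, 0.206 and 0.0922 CPM in the SPF ethanol libraries and 0.275, 0 and 0.0658 with MC903, against 0.601, 0.612 and 0.63 in GF ethanol and 1.14, 0.611 and 0.888 in GF MC903. Its SPF MC903 values rest on 13 counts over 3 libraries, SPF MC903 2 had none, and all GF MC903 libraries were higher (2.87 ± 0.72, adjusted p = 0.0069). Mx1 read 1.5, 0.886 and 0.977 CPM (SPF ethanol), 0.599, 0.411 and 0.559 CPM (SPF MC903), 0.922, 0.76 and 1.34 CPM (GF ethanol) and 0.851, 0.945 and 1.09 CPM (GF MC903). GF exceeded SPF with MC903 by 0.88 ± 0.32 (adjusted p = 0.045), but this was lost on omitting SPF MC903 1, 2 or 3, SPF ethanol 3, GF MC903 1, 4 or 5, or GF ethanol 1 (log2 0.73 to 1.0, adjusted p = 0.055 to 0.14), by DESeq2 (adjusted p = 0.064) and with no filter (adjusted p = 0.054).

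Samhd1 was the one member called lower in GF skin with MC903. It encodes an enzyme that depletes deoxynucleotides and so limits reverse transcription, and had 51.3, 46.6 and 40.2 CPM in SPF ethanol, 212, 212 and 220.3 in SPF MC903, 47, 47.7 and 50 in GF ethanol and 133, 129 and 157 in GF MC903. MC903 raised it 4.66-fold in SPF skin, log2 2.22 ± 0.1 (adjusted p = 1.1e-09), and 2.9-fold in GF skin, log2 1.53 ± 0.09 (adjusted p = 4.2e-08). The difference between responses was -0.69 ± 0.13 (adjusted p = 0.0039), and GF MC903 libraries lay below all SPF MC903 libraries, -0.62 ± 0.09 (adjusted p = 0.00021). Both held under each alternative and each left-out library. Adar, an RNA-editing enzyme that keeps self RNA from being sensed, stood at 48.7, 49.3 and 46.3 CPM in the SPF ethanol libraries and 39.5, 38.2 and 36.2 with MC903, against 41.1, 34.3 and 42.7 in GF ethanol and 38.2, 34.7 and 38.6 in GF MC903. It was lower in GF skin with ethanol, -0.29 ± 0.09 (adjusted p = 0.032), which was lost on omitting SPF ethanol 1, 2 or 3, or GF ethanol 1 or 4 (log2 -0.32 to -0.21, adjusted p = 0.05 to 0.11) and with the length trend removed (-0.11, adjusted p = 0.4). Trim30a, a restriction factor with near-identical copies, ranged from 2.31 to 4.38 CPM over the 12 libraries and passed in no comparison.

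**Figure D2:**
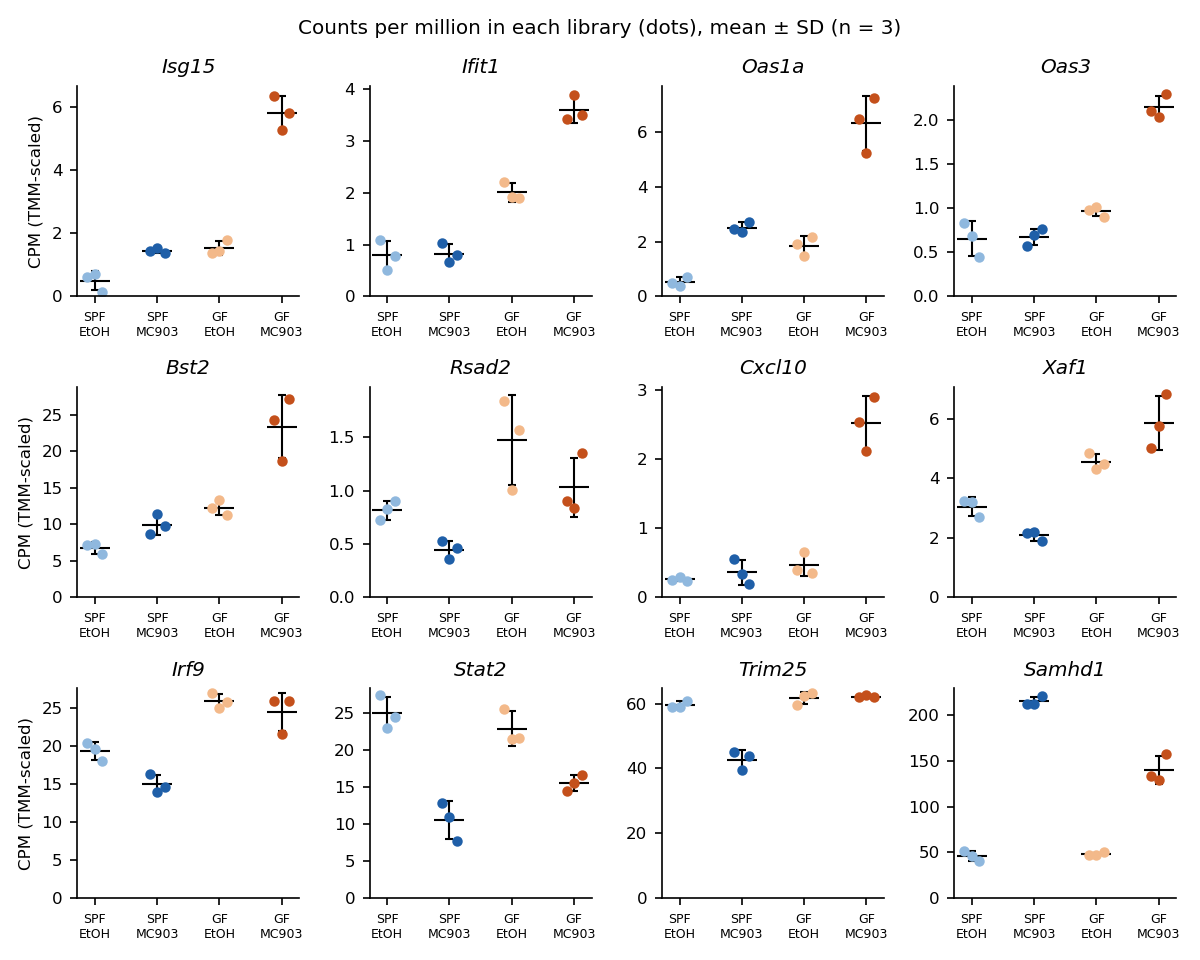
CPM in each library for 12 members (dots), with group mean and SD (n = 3), on axes that start at 0. Isg15, Ifit1 and Cxcl10 are highest in GF MC903, Trim25 is lowest in SPF MC903, and Samhd1 is highest in SPF MC903.

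Among 6 other induced proteins, 5 were higher in GF skin under both treatments. Over all tested genes 20.8% were higher with MC903 and 11.6% with ethanol. Xaf1, a pro-apoptotic protein, had 3.25, 3.2 and 2.69 CPM in SPF ethanol, 2.17, 2.19 and 1.88 in SPF MC903, 4.85, 4.31 and 4.49 in GF ethanol and 5.02, 5.75 and 6.82 in GF MC903. MC903 lowered it in SPF skin, -0.55 ± 0.15 (adjusted p = 0.0059), and it rose in GF skin, 0.37 ± 0.14 (adjusted p = 0.037), although on library totals the GF change was -0.15 (adjusted p = 0.38). The difference between the responses, 0.91 ± 0.21 (adjusted p = 0.011), held under each alternative and each left-out library, while the GF response was lost on omitting GF MC903 4 or 5, or GF ethanol 4 or 5 (log2 0.24 to 0.38, adjusted p = 0.062 to 0.18). GF exceeded SPF by 0.58 ± 0.14 (adjusted p = 0.015) with ethanol and 1.49 ± 0.15 (adjusted p = 1.5e-05) with MC903. The ethanol value was lost on omitting SPF ethanol 3, or GF ethanol 1 (log2 0.5 to 0.53, adjusted p = 0.05 to 0.057).

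Rtp4, a receptor-transporting protein with antiviral activity, read 1.16, 1.69 and 1.07 CPM in the SPF ethanol libraries and 2.67, 1.49 and 2.57 with MC903, against 2.75, 2.41 and 2.92 in GF ethanol and 5.79, 4.81 and 7.68 in GF MC903. GF libraries lay above SPF libraries in both treatments, 1.05 ± 0.26 (adjusted p = 0.015) and 1.44 ± 0.25 (adjusted p = 0.0007). Ifi35 had 15.1, 12.9 and 14.2 CPM (SPF ethanol), 22.5, 27.8 and 23.4 CPM (SPF MC903), 18.9, 20.9 and 18.3 CPM (GF ethanol) and 36.6, 30.8 and 36.5 CPM (GF MC903). Housing and treatment each separated its groups, with GF minus SPF at 0.46 ± 0.1 (adjusted p = 0.01) and 0.49 ± 0.1 (adjusted p = 0.0024). Ifi27l2a, a mitochondrial protein gene with close copies, measured 8.07, 7.94 and 7.1 CPM in SPF ethanol, 17.9, 21.5 and 19.8 in SPF MC903, 13.5, 18.1 and 14.9 in GF ethanol and 27.2, 28 and 30.1 in GF MC903. It was higher in GF skin by 1.01 ± 0.11 (adjusted p = 0.00042) with ethanol and 0.53 ± 0.11 (adjusted p = 0.0023) with MC903, the latter 0.04 (adjusted p = 0.8) with the length trend removed.

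Ly6e, a lipid-anchored surface protein, had 161, 193 and 186 CPM in the SPF ethanol libraries and 329, 383 and 301 with MC903, against 231, 260.4 and 227 in GF ethanol and 529, 524 and 579.5 in GF MC903. GF exceeded SPF by 0.41 ± 0.1 (adjusted p = 0.012) with ethanol and 0.69 ± 0.1 (adjusted p = 0.00015) with MC903. Ifi44 was sparse, between 0 and 0.63 CPM, and passed in no comparison (GF minus SPF with MC903 1.59 ± 0.73, adjusted p = 0.1). With ethanol, Rtp4 was lost on omitting SPF ethanol 1 or 3 (log2 0.92 to 0.97, adjusted p = 0.051 to 0.058), Ifi35 on omitting GF ethanol 4 (log2 0.39, adjusted p = 0.052) and with the length trend removed (adjusted p = 0.052), and Ly6e on omitting GF ethanol 4 (log2 0.34, adjusted p = 0.061).

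The CXCR3 ligands attract activated T cells. Cxcl10 had 0.247, 0.289 and 0.24 CPM (SPF ethanol), 0.549, 0.334 and 0.197 CPM (SPF MC903), 0.401, 0.655 and 0.357 CPM (GF ethanol) and 2.53, 2.11 and 2.89 CPM (GF MC903). Only the GF MC903 libraries were above 1 CPM, and they did not overlap any other group. The GF response was 2.41 ± 0.33 (adjusted p = 3.2e-05), a 5.31-fold rise, against 0.51 ± 0.39 (adjusted p = 0.26) in SPF skin. Their difference, 1.9 ± 0.51 (adjusted p = 0.025), was lost on omitting SPF MC903 2 or 3, SPF ethanol 2, GF MC903 1 or 5, or GF ethanol 1 or 5 (log2 1.64 to 1.9, adjusted p = 0.05 to 0.062), and GF exceeded SPF with MC903 6.77-fold, log2 2.76 ± 0.35 (adjusted p = 6.8e-05). Cxcl9 read 0.228, 0.825 and 0.479 CPM in SPF ethanol, 0.15, 0.154 and 0.526 in SPF MC903, 0.401, 1.03 and 0.294 in GF ethanol and 0.284, 0.417 and 0.401 in GF MC903. All its groups overlapped, and no comparison passed (GF minus SPF with MC903 0.47 ± 0.69, adjusted p = 0.62). Cxcl11 could not be tested, and its 0 counts in SPF MC903, of 132625606 in that group, allow up to 3 over the group. These 3 genes adjoin on chromosome 5, and Cxcl10 and Cxcl11 overlap Art3 in the annotation.

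**Figure D3:**
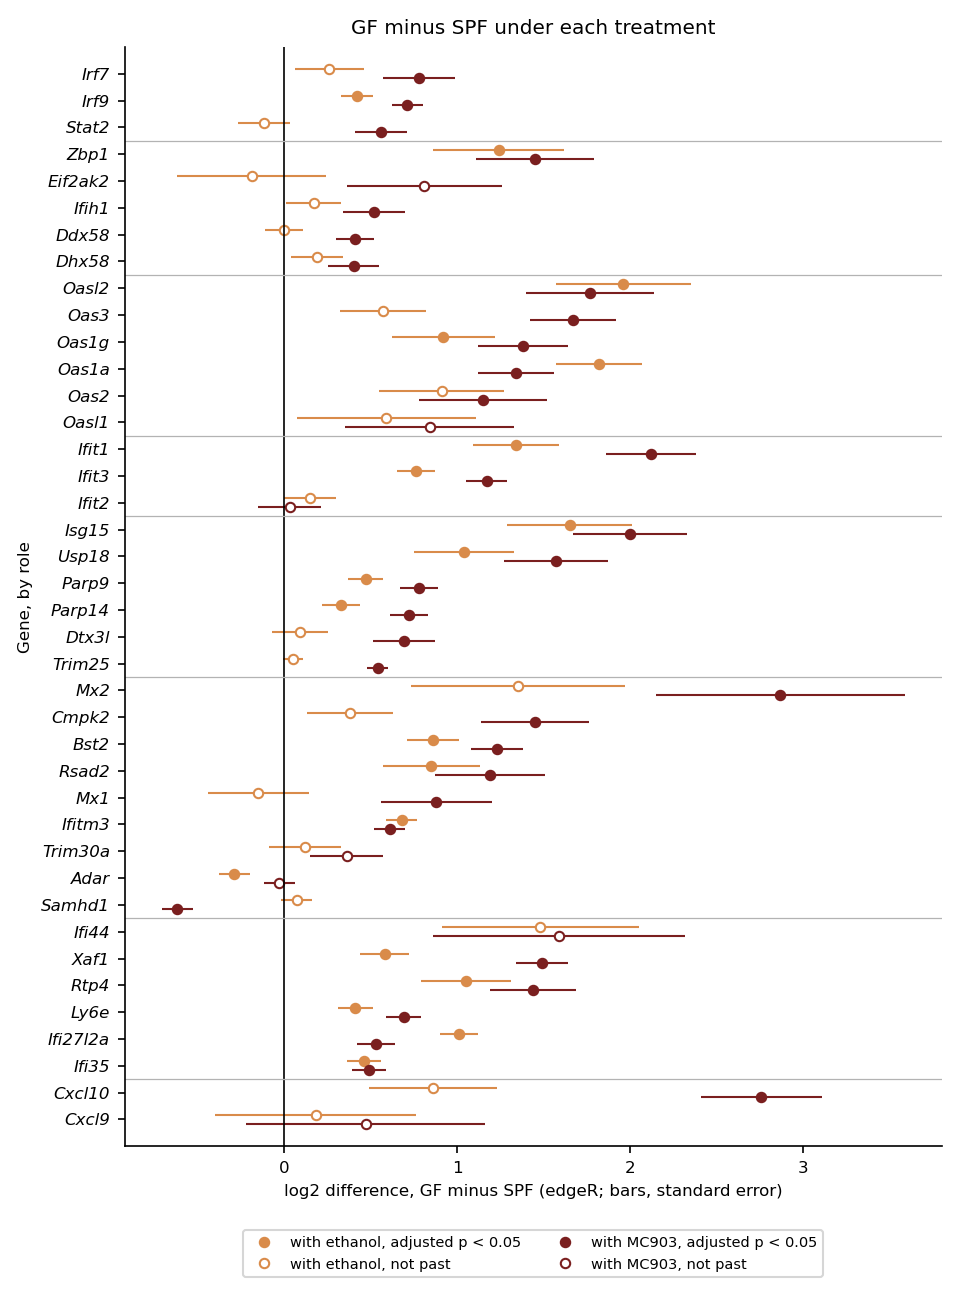
GF minus SPF log2 differences of the 40 tested members with ethanol and with MC903, with bars for the standard error and filled points for adjusted p under 0.05. Most points lie to the right of 0, and Samhd1 with MC903 and Adar with ethanol are the filled points on the left.

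Within the mixed response to MC903, 12 members rose in both housings: Isg15, Oas1a, Oas1g, Oasl2, Bst2, Ifi35, Rtp4, Zbp1, Ifi27l2a, Ifitm3, Ly6e and Samhd1. Another 8 fell in both: Ifit2, Stat2, Ifih1, Ddx58, Cmpk2, Parp9, Parp14 and Dtx3l. Xaf1 fell in SPF and rose in GF skin. A further 5 rose with a call in GF skin alone (Ifit1, Oas3, Irf7, Dhx58 and Cxcl10), and 7 fell with a call in SPF skin alone (Ifit3, Mx1, Irf9, Rsad2, Trim25, Eif2ak2 and Adar). For those 12, the difference between responses passed only for Cxcl10 and Trim25. The other 7 tested members passed in neither response. On library totals GF skin also had called falls of Ifit3 (-0.71, adjusted p = 0.00015), Irf9 (-0.59, adjusted p = 0.00014), Rsad2 (-1.04, adjusted p = 0.0063), Trim25 (-0.5, adjusted p = 2.1e-05) and Adar (-0.6, adjusted p = 7.7e-05). Ifit3 also fell there with the length trend removed (-0.31, adjusted p = 0.027). Falls called in SPF skin alone thus depend on scaling. Of all tested genes, 35.0% rose and 38.8% fell in SPF skin, and 33.4% rose and 35.1% fell in GF skin. The shares of all genes with the same pair of calls were not computed. These joint counts are therefore a description and cannot be set against a background.

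By role, medians of the responses were as follows. The counts stand beside 35.0% of all genes higher and 38.8% lower in SPF skin, and 33.4% and 35.1% in GF skin. With TMM scaling the OAS family had positive estimates in all 6 genes in both housings. Its medians were 1.19 in SPF and 1.22 in GF skin, with 3 and 4 called higher. On library totals the medians were 0.61 and 0.7, with 2 and 3 called higher. Sensors had medians of -0.91 and -0.34, or -0.46 and -0.03 with the length trend removed. Of the 5, 1 was higher and 3 lower in SPF skin, and 2 were higher and 2 lower in GF skin. The ISG15, ubiquitin and ADP-ribose group had medians of -0.57 in SPF and -0.13 in GF skin, the latter 0.23 with the length trend removed. Antiviral effectors had medians of -0.34 and 0.29, the latter -0.22 on library totals. Single directions also turned, among others as follows. On library totals Irf7 in SPF was -0.5 (adjusted p = 0.043), Bst2 in SPF -0.02 (adjusted p = 0.89) and Dhx58 in GF -0.03 (adjusted p = 0.88). With the length trend removed Bst2 in SPF was -0.06, Ifi27l2a in GF -0.21, Parp14 in GF 0.23, and Adar 0.19 in SPF and 0.36 in GF skin.

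Other response calls were lost under another scaling or without the length trend. On library totals Oasl2 lost its rise in SPF (0.88, adjusted p = 0.068) and GF skin (0.76, adjusted p = 0.077), Ifi35 and Rtp4 in SPF skin (0.22, adjusted p = 0.061, and 0.21, adjusted p = 0.49), and Ifit1 and Irf7 in GF skin (0.33, adjusted p = 0.23, and 0.08, adjusted p = 0.73). Once the trend with length was taken out, the rise of Rtp4 in SPF (0.57, adjusted p = 0.076) and those of Bst2 (0.19, adjusted p = 0.26) and Irf7 (0.42, adjusted p = 0.08) in GF skin were lost. So were the falls of Parp14 (-0.04, adjusted p = 0.76), Rsad2 (-0.59, adjusted p = 0.1) and Eif2ak2 (-1.0, adjusted p = 0.056) in SPF skin and of Stat2 (-0.24, adjusted p = 0.18) and Ddx58 (-0.12, adjusted p = 0.34) in GF skin. Parp14 in GF skin was also lost with DESeq2 size factors (-0.25, adjusted p = 0.053).

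Several response calls were lost when 1 library was left out. In SPF skin Rsad2 (-0.86 ± 0.32, adjusted p = 0.026) was lost on omitting SPF MC903 2 or 3, or SPF ethanol 2 or 3 (log2 -0.88 to -0.72, adjusted p = 0.053 to 0.096), Rtp4 (0.78 ± 0.27, adjusted p = 0.018) on omitting SPF MC903 1 or 3, or SPF ethanol 1 or 3 (log2 0.63 to 0.7, adjusted p = 0.059 to 0.078), and Eif2ak2 (-1.34 ± 0.45, adjusted p = 0.017) on omitting SPF ethanol 3 (log2 -1.22, adjusted p = 0.05). In GF skin Irf7 (0.59 ± 0.2, adjusted p = 0.02) was lost on omitting GF MC903 5, or GF ethanol 1 or 4 (log2 0.44 to 0.54, adjusted p = 0.067 to 0.097), Dhx58 (0.48 ± 0.15, adjusted p = 0.012) on omitting GF MC903 5 (log2 0.33, adjusted p = 0.072), and Parp14 (-0.27 ± 0.11, adjusted p = 0.044) on omitting SPF ethanol 1, 2 or 3, GF MC903 1, 4 or 5, or GF ethanol 1, 4 or 5 (log2 -0.31 to -0.19, adjusted p = 0.05 to 0.17). Over the 40 members the SPF and GF responses, which share no library, had Pearson's r 0.9 and Spearman's rho 0.91, close to the rho of 0.88 over all genes.

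**Figure D4:**
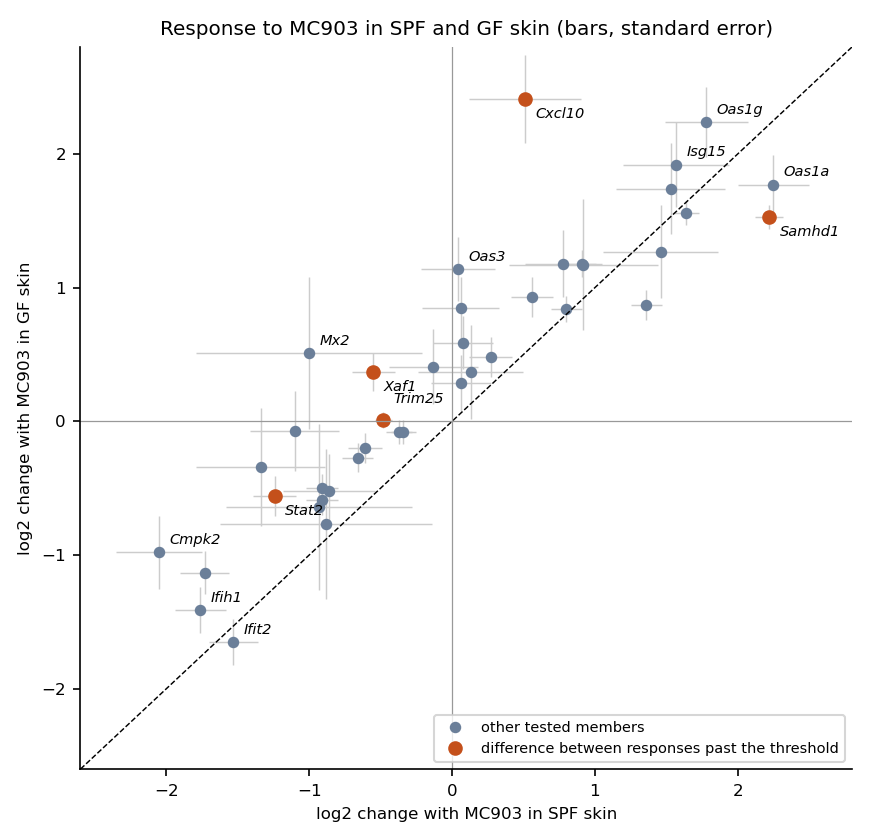
Log2 change with MC903 in SPF skin (horizontal) and GF skin (vertical) for the 40 tested members, with standard errors and the line of equal response. The 5 marked genes passed the test of the difference: Cxcl10, Xaf1, Stat2 and Trim25 lie above the line and Samhd1 below it.

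Compared per length, as FPKM deposited by the authors, most members were scarce. The median member stood at 1.41 FPKM in SPF ethanol, 0.828 in SPF MC903, 1.98 in GF ethanol and 1.84 in GF MC903, against 7.28, 4.5, 6.84 and 4.41 for the median tested gene. Under 1 FPKM there were 20, 22, 16 and 15 members, and at 10 FPKM or more 7, 6, 8 and 6. Ifitm3 was the most abundant, at 126 ± 19.4 (SD, n = 3), 263 ± 11.1, 195 ± 8.72 and 403 ± 3.05 FPKM in the same order. Ly6e followed at 105 ± 7.54, 137 ± 14, 138 ± 9.59 and 223 ± 12. In SPF ethanol the 2 genes did not differ beyond their spread, whereas they were apart in GF ethanol and in both MC903 groups. Isg15, often used as a marker of the pathway, reached 6.21 ± 0.575 FPKM in GF MC903 and 0.766 ± 0.48 in SPF ethanol.

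Transcripts of the interferons themselves were nearly absent. Of 21 interferon genes in the table, 14 had no count in any library, among them Ifnb1, Ifne and Ifng, and none entered the test. Ifnz had 25, 11, 27 and 10 counts over the SPF ethanol, SPF MC903, GF ethanol and GF MC903 groups. At this depth a difference in interferon transcripts between housings was not detectable. Interferon protein was not measured.

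Of 6 interferon receptor genes, 5 were higher in GF skin with MC903 and 2 with ethanol, where 20.8% and 11.6% of all genes were. Ifnar1, the exception, had 57.9, 51.6 and 52.4 CPM in SPF ethanol, 40.3, 39.3 and 47.1 in SPF MC903, 48.3, 44.6 and 48.1 in GF ethanol and 36.7, 37.2 and 38.2 in GF MC903, and did not pass (GF minus SPF with MC903 -0.18 ± 0.08, adjusted p = 0.1). Ifnar2 was higher by 0.34 ± 0.08 (adjusted p = 0.0062), which was lost with the length trend removed (adjusted p = 0.23). The interferon-gamma receptor chain Ifngr2 was higher by 0.71 ± 0.09 (adjusted p = 4.7e-05) and Ifngr1 by 0.53 ± 0.16 (adjusted p = 0.02). For the interferon-lambda receptor, Ifnlr1 was higher by 0.41 ± 0.1 (adjusted p = 0.0046) and Il10rb by 0.36 ± 0.06 (adjusted p = 0.00073). Ifngr1 was lost on leaving out any of SPF MC903 1, GF MC903 1 and SPF MC903 2, and with the length trend removed (adjusted p up to 0.065). The 2 ethanol calls were Ifnar2 (0.27, adjusted p = 0.036), lost in 7 of 17 alternatives, and Ifngr2 (0.37, adjusted p = 0.011), lost in 1 of 17.

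Among 8 kinases and interferon regulatory factors, 1 was higher and 1 lower in GF skin with MC903, where 20.8% and 20.9% of all genes were. Irf1, a factor induced by interferon gamma, was higher by 0.68 ± 0.15 (adjusted p = 0.0028). Jak2, a kinase of the gamma receptor, was lower, -0.81 ± 0.09 (adjusted p = 4.3e-05). Jak1 and Tyk2, the kinases of the type I receptor, did not pass there, at 0.04 ± 0.07 (adjusted p = 0.65) and -0.09 ± 0.1 (adjusted p = 0.47).

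A further list of 52 genes known to respond to interferon held no member of the set. Its genes numbered 51 in the deposited data, of which 50 were tested. With MC903 27 were higher and 2 lower in GF skin, where 20.8% and 20.9% of all genes were, with a median of 0.49. With ethanol 15 were higher and 2 lower, where 11.6% and 10.3% of all genes were, with a median of 0.28. Oas1c, an OAS paralogue, was 2.11 ± 0.11 (adjusted p = 3.1e-07) higher with MC903 and Parp10 1.62 ± 0.11 (adjusted p = 8.3e-07). Psmb9, a subunit of the immunoproteasome that cuts peptides for presentation, was 1.01 ± 0.16 (adjusted p = 0.0025) higher with ethanol and 1.38 ± 0.17 (adjusted p = 5.1e-05) with MC903. In response to MC903, 9 of the 50 rose and 30 fell in SPF skin, where 35.0% and 38.8% of all genes did. In GF skin 9 rose and 20 fell, where 33.4% and 35.1% did. The list's median responses were -0.52 and -0.26, against -0.1 and -0.07 over all genes. On library totals 4 rose and 37 fell in SPF skin, and 3 rose and 35 fell in GF skin. The difference between responses passed for 6 of the 50, all upward, where 7.76% of all genes passed upward. The largest were Oas1c (1.92 ± 0.15, adjusted p = 2.6e-05), Parp10 (1.2 ± 0.15, adjusted p = 0.00029), the MHC class I activator Nlrc5 (1.15 ± 0.21, adjusted p = 0.0033) and the peptide transporter Tap1 (0.71 ± 0.12, adjusted p = 0.0024).

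Markers of other cell types also moved with the groups, and their counts are to be read against all tested genes. Of those, 20.8% were higher and 20.9% lower in GF skin with MC903, and 11.6% and 10.3% with ethanol. In response to MC903, 35.0% of them rose and 38.8% fell in SPF skin, and 33.4% rose and 35.1% fell in GF skin. In bulk skin, fewer cells of a type and less RNA per cell cannot be told apart. The 7 T cell markers summed to 34.0 to 37.2 CPM in SPF ethanol, 13.6 to 15.3 in SPF MC903, 34.3 to 35.5 in GF ethanol and 25.1 to 29.0 in GF MC903. All 6 tested T cell markers fell with MC903 in SPF skin, and 5 of 6 were higher in GF than SPF skin with MC903. Cd8a was at 0 in SPF ethanol. With ethanol the T cell sums of the housings overlapped. The 8 dendritic and Langerhans cell markers summed to 28.3 to 34.0, 29.9 to 35.2, 39.4 to 51.7 and 46.6 to 53.0 CPM in the same order, and 3 of 8 were higher in GF skin under each treatment. Macrophage and monocyte markers, 11 genes, summed to 431.3 to 514.7, 596.5 to 720.7, 524.9 to 567.8 and 652 to 739.6 CPM. Of these 11, 3 were higher in GF skin with ethanol, and 3 were higher, near the share over all genes, and 1 lower with MC903. The 8 natural killer cell genes summed to 9.5 to 10.9, 4.06 to 5.64, 9.36 to 11.1 and 7.5 to 8.97 CPM, with Ncr1 at 0 in 3 groups, and 2 of 5 tested were higher in GF skin with MC903. The 8 plasmacytoid dendritic cell genes summed to 1410.2 to 1597.9, 1914.7 to 2487.9, 1555.7 to 1749.5 and 2887.9 to 3045.5 CPM, nearly all from Ly6d, which other skin cells also express. Of 7 tested, 2 rose and 3 fell with MC903 in SPF skin, and 1 rose and 3 fell in GF skin. These falls were near the shares over all genes. GF exceeded SPF for 2 with MC903 and for 1 with ethanol, where 1 was lower. Klk1 was at 0 in both SPF groups. Siglech, a defining gene of plasmacytoid dendritic cells, had 0.882 ± 0.18 CPM (SD, n = 3) in SPF ethanol, 0.202 ± 0.189 in SPF MC903, 0.778 ± 0.172 in GF ethanol and 0.302 ± 0.0466 in GF MC903. The 7 keratinocyte genes summed to 21180.8 to 24135.9 CPM in SPF ethanol, 45681 to 55636.2 in SPF MC903, 24850.5 to 28374.1 in GF ethanol and 56878.8 to 58165.9 in GF MC903. These sums were higher in MC903 than in ethanol libraries, and GF lay above SPF without overlap under both treatments. Of the 7, 4 were higher and 2 lower in GF skin with MC903, and 3 higher and 1 lower with ethanol. The 6 fibroblast genes summed to 9934.9 to 11385.2, 5134.3 to 6552.9, 7920.1 to 9610.1 and 4770.6 to 6043.4 CPM in the same order. With ethanol these sums were lower in GF than SPF skin without overlap, and with MC903 they overlapped. All 6 fell with MC903 in both housings. None was higher in GF skin, and 1 was lower with ethanol and 2 with MC903. The 6 endothelial genes summed to 133.0 to 148.1, 107.4 to 124.6, 157.3 to 161.3 and 115.9 to 121.6 CPM. Of these 6, 1 was higher in GF skin under each treatment, and 2 were lower with MC903. The 9 neutrophil genes summed to 5.05 to 6.84, 11.4 to 13.9, 4.07 to 7.09 and 16.0 to 19.2 CPM. Of 4 tested, 1 was higher in GF skin with MC903 and none with ethanol, and none was lower. The part of these cell markers in the interferon-stimulated gene differences was not tested.

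Transcript length moved with both responses. The length implied by each gene's counts and FPKM correlated with the response over the 40 members at Spearman's rho -0.62 in SPF and -0.66 in GF skin, against -0.31 and -0.38 over all genes. For GF minus SPF it was -0.62 with ethanol and -0.35 with MC903, against -0.4 and -0.26, and for the difference between responses 0.17 against 0.01. In the shortest of 5 length classes, up to 1530 bases, the 7 members had a median SPF response of 1.36 and all genes 0.48. In the fourth class, from 3276.6 to 4662.5 bases, the 9 members had -0.91 and all genes -0.27. GF minus SPF with MC903 had positive member medians in every class, from 0.54 in the longest to 1.49 in the middle one, where all genes had -0.13 and -0.02. With the length trend of all genes removed, chosen as an alternative after the data were seen, the members' median GF minus SPF was 0.52 with ethanol and 0.84 with MC903. Then 16 members were higher and 0 lower with ethanol, and 29 higher and 1 lower with MC903. By edgeR the lone ethanol call downward, Adar, went to an adjusted p of 0.4.

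**Figure D5:**
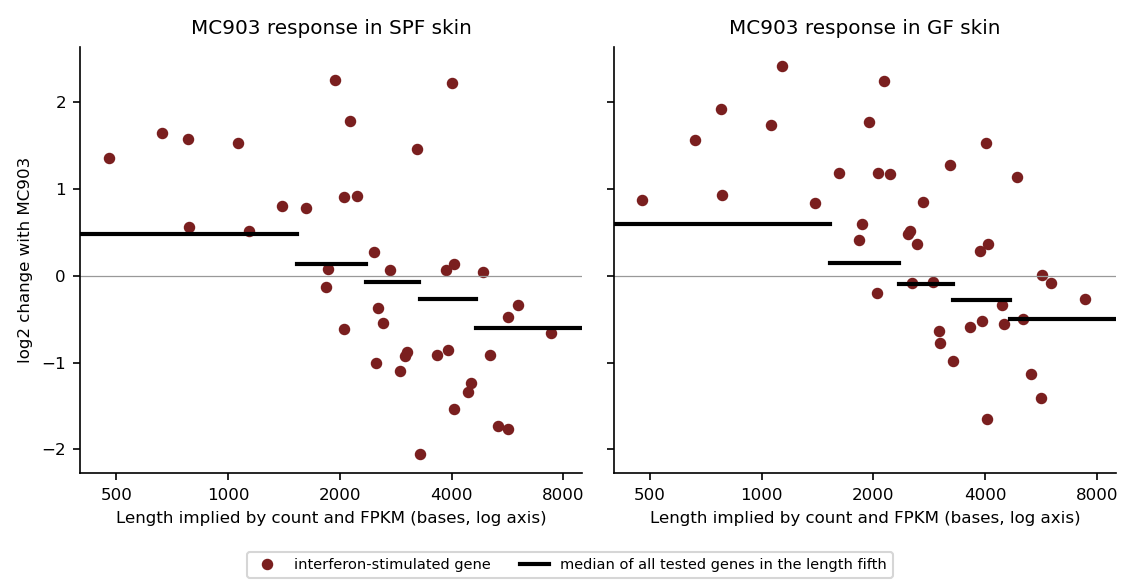
Log2 change with MC903 against transcript length (log axis, bases) for the tested members (dots) in SPF and GF skin, with black bars for the median of all tested genes in 5 length classes. Short members lie above 0 more often than long ones, and the medians of all genes fall with length.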

How the data were processed

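Total RNA of mouse ear skin was sequenced in 12 libraries of 4 groups with 3 each, using TruSeq v2 libraries and HiSeq4000 sequencing, per the labels' protocols. HISAT2 2.1.0 and StringTie 1.3.4d, with Trimmomatic and bcl2fastq 2.20.0, appear in the submitters' processing notes beside the build mm10, and neither settings nor strand handling is given there. The authors deposited estimated counts per gene (expected counts, here whole numbers) and FPKM values, FPKM being the level per length. The library kit does not mark strand. No per-sample column went unused.

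One edgeR 4.0.16 quasi-likelihood model (R 4.3.3) with 1 coefficient per group was fitted to the deposited counts of all libraries, with TMM scaling. The filter (filterByExpr by group, minimum count 10, minimum total 15) kept 16466 genes and left out 8066. Adjusted p-values are Benjamini-Hochberg over those genes, and the threshold was 0.05. The SE of a log2 difference is its size divided by the square root of the test's F. The procedure was tested on simulated counts. Deposited FPKM values served for comparing levels between genes.

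Alternatives were DESeq2 size factors or library totals in edgeR, no filter, DESeq2 1.42.0, a replicate block, leaving out each library, and removal of the length trend (lowess, span 0.3), the last added after the data were seen. The members and gene lists were chosen with earlier results of these data known. All members could be named. Those past the threshold in the difference between responses or in GF minus SPF with MC903, and the 2 with the largest change in either response in each role group, have every library's value. Genes outside the set were named from fixed lists, at most 4 per list and comparison by size of change, besides interferons and receptors. A gene of the list of kinases and interferon regulatory factors is not reported here. Overlapping genes and near-identical copies are counted as deposited and are uncertain.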

Additional observations from a re-analysis of the deposited data

Results flagged for a closer look

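For 5 interferon-stimulated genes the response to MC903 differed between GF and SPF skin in edgeR's test of that difference (n = 3 libraries a group, Benjamini-Hochberg adjusted over all tested genes). Trim25, the ubiquitin ligase acting on RIG-I, had a difference of 0.49 ± 0.09 (adjusted p = 0.0031). Samhd1, the deoxynucleotide hydrolase, had -0.69 ± 0.13 (adjusted p = 0.0039). Xaf1, the pro-apoptotic protein, had 0.91 ± 0.21 (adjusted p = 0.011). The values for these 3 kept their call under every alternative run. The chemokine gene Cxcl10 had 1.90 ± 0.51 (adjusted p = 0.025) and the ISGF3 subunit gene Stat2 0.69 ± 0.21 (adjusted p = 0.044), and both lost their call when single libraries were left out.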

How the results depend on the processing

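Of the calls made, those kept under every alternative run numbered 26 of 33 for GF minus SPF with MC903, 10 of 20 with ethanol, 3 of 5 for the difference between responses, 19 of 28 for the SPF response and 16 of 26 for the GF response. Counts of members moved with the setting, among others as follows. Members lower in the SPF response numbered 16, and 11 with the length trend removed. Members lower in the GF response numbered 8, and 13 on library totals. Those lower in the difference numbered 1, and 2 with DESeq2 size factors, with DESeq2 and with the length trend removed. The 1 member lower with ethanol fell to 0 with the length trend removed. Leaving out 1 library gave 2 to 6 higher and 1 to 2 lower for the difference, and 13 to 19 higher and 0 to 1 lower with ethanol. With MC903 it gave 28 to 31 higher and 1 lower, in the GF response 15 to 19 higher and 7 to 9 lower, and in the SPF response 11 to 12 higher and 14 to 17 lower. Turned directions are listed only for members with a call in the reported fit or in the alternative. Sign changes without a call in either are not listed. On library totals directions turned for Irf7 (-0.50) and Bst2 (-0.02) in the SPF response. In the GF response they turned for Xaf1 (-0.15), Dhx58 (-0.03) and Trim25 (-0.50). With the length trend removed directions turned for Bst2 (-0.06), Trim25 (0.02) and Adar (0.19) in the SPF response. In the GF response they turned for Parp14 (0.23), Ifi27l2a (-0.21) and Adar (0.36). Scaling and length are what these settings change by construction, and no further cause was tested. To look for pairing, each gene's group mean was subtracted from its log2 CPM and the remainders were correlated between libraries. On these remainders same-numbered libraries correlated at -0.022 to 0.14, not above 0.1 in every pair. The replicate numbers were therefore not taken to pair them. GF 1, SPF 2 and SPF 3 correlated best with their own number, and GF 4, GF 5 and SPF 1 did not. With the replicate block, 12 members rose and 16 fell in the SPF response, 18 and 8 in the GF response, and the difference passed for 3 upward and 1 downward. Cxcl10 lost that call (1.99, adjusted p = 0.058), Xaf1 lost its GF response (0.36, adjusted p = 0.057), Oasl1 gained one (1.23, adjusted p = 0.046), and the block ended or added no other member's call. Sparse genes such as Mx2, Ifi44, Cxcl9 and Cxcl11 are limited by depth.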

Other observations

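Genes upstream of the interferons, and genes that restrain the pathway, were measured in the same fit. Of 13 upstream sensors and adaptors, 5 were higher and 1 lower in GF than SPF skin with MC903, where 20.8% and 20.9% of all genes were. The largest were Mb21d1, which encodes the DNA sensor cGAS, at 0.75 ± 0.22 (adjusted p = 0.016), the kinase gene Ikbke at 0.62 ± 0.11 (adjusted p = 0.00064), the double-stranded RNA receptor Tlr3 at 0.58 ± 0.13 (adjusted p = 0.0032), and Tmem173, which encodes STING, at 0.57 ± 0.17 (adjusted p = 0.016). Library values of Mb21d1 were 4.65, 3.67 and 5.40 CPM in SPF ethanol, 3.99, 2.34 and 3.39 in SPF MC903, 5.15, 3.46 and 3.55 in GF ethanol and 5.53, 5.67 and 5.13 in GF MC903. Its call was lost without SPF MC903 2 (adjusted p = 0.059), and that of Tmem173 without SPF MC903 3 (adjusted p = 0.052). The RNA and DNA receptors of endosomes Tlr7 and Tlr9 fell with MC903 in SPF skin, -1.71 ± 0.21 (adjusted p = 9.6e-06) and -1.66 ± 0.35 (adjusted p = 0.00083), and Trex1, a nuclease that clears cytosolic DNA, rose, 1.93 ± 0.10 (adjusted p = 5.7e-09). All 3 moved the same way in GF skin, at -1.67 (adjusted p = 2e-05), -2.21 (adjusted p = 0.00015) and 1.38 (adjusted p = 1.8e-07). The difference between responses passed downward for Trex1 (-0.55, adjusted p = 0.02). It passed upward for Tlr3 (0.57, adjusted p = 0.041), a call lost in 13 of 18 alternatives.

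Among 7 negative regulators, none was lower in GF skin with MC903, where 20.9% of all genes were. In the same comparison 3 were higher, where 20.8% of all genes were. They were Socs1, an inhibitor of JAK kinases, at 0.90 ± 0.25 (adjusted p = 0.011), the phosphatase gene Ptpn6 at 0.59 ± 0.07 (adjusted p = 6.9e-05), and Irf2bp2 at 0.25 ± 0.07 (adjusted p = 0.014). The median over the 7 was -0.04.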
